A study of Homo sapiens with 12 samples.

Results

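The dox response shared by 2 human pancreatic ductal adenocarcinoma lines, Pa-Tu-8902 (labelled Tu8902) and MIA PaCa-2 (labelled Mia), was measured by poly(A) RNA sequencing. Both lines carried a short hairpin RNA (shRNA) against GOT1 that is switched on by doxycycline (dox). Each line had 3 untreated libraries (mnsdox) and 3 libraries from cells given dox for 5 days (plsdox), and all 12 of the 12 libraries were used. Of 58721 genes in the count table, 13109 reached 10 counts in 3 or more libraries of each line and were tested for the average effect of dox, with the line held as a block. No library carried a control hairpin with dox, so an effect of dox itself, of the hairpin and of GOT1 loss cannot be told apart, and untreated cells kept the hairpin cassette. Nothing says that the libraries of a group came from separate cultures, so the p-values of each line's effect measure the spread between these libraries. The model of the average has no term for a difference between the lines. Its standard errors and p-values therefore take in that difference as well as the spread between libraries. The hairpin used for sequencing, and whether each line was a pool or a clone, were not given in the sources used here.

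GOT1 is the cytosolic aspartate aminotransferase. It works in the malate-aspartate shuttle, which carries electrons from cytosolic NADH into mitochondria, and in pancreatic cancer cells it is known for feeding a route by which glutamine-derived aspartate supports NADPH and redox balance. An shRNA is processed to a short guide strand that directs cleavage of a matching transcript. As with microRNAs, a guide can also lower other transcripts that match only its first bases, the seed, most often through sites in the 3′ untranslated region (3′UTR).

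Totals ranged from 26226537 to 43406137 counts per library. The epithelial markers KRT7, CDH1 and EPCAM stood at 1280, 65.3 and 548 TPM (transcript abundance scaled by length and library) in untreated Pa-Tu-8902 and at 0.423, 0.01 and 0.14 in untreated MIA PaCa-2, where VIM stood at 3930. Summed over 7 acinar, 7 leukocyte and 5 endothelial markers, no group exceeded 1.74, 13.6 and 1.2 TPM. Line names were taken from the sample titles. The study's own material gives these values the opposite line names in one place. Exchanging the names would exchange all values given per line and turn the sign of each difference between lines, but would leave the average and the alike calls as they are. Values below are normalised counts (counts scaled by trimmed-mean library factors to the mean library), and fold changes, standard errors (SE) and Benjamini-Hochberg adjusted p-values come from the edgeR quasi-likelihood test. A gene was called where the adjusted p was under 0.01 and the change was 1.5-fold or more.

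GOT1 (chr10:99396870-99430624, GRCh38, minus strand) was the deepest fall of the shared response. Untreated Pa-Tu-8902 libraries held 3923, 3808 and 4337 counts, and dox libraries 185, 160 and 142. In MIA PaCa-2 the counts were 2173, 2401 and 2268 without dox and 71.8, 77.2 and 98.8 with it. All 6 dox libraries lay far below the 6 untreated ones. Pa-Tu-8902 had a log2 change of -4.63 ± 0.10 (SE), MIA PaCa-2 had one of -4.77 ± 0.11, and the average was -4.69 ± 0.09 (adjusted p = 2.42e-13). The difference between the lines did not pass the test (0.14, adjusted p = 0.525).

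Across all tested genes the average effect of dox was called higher for 571 genes (4.36% of those tested) and lower for 675 (5.15%). An average can be carried by 1 line, so a gene was described as alike only where the average and each line's own effect were called in the same direction. That held for 214 genes that rose (1.63% of tested genes) and 321 that fell (2.45%). A further 357 rises and 354 falls of the average were not called in both lines, and 114 genes were called in both lines in opposite directions. The difference between the lines was called for 1665 genes (12.7%), among them 318 of the 1246 genes of the average but only 74 of the 535 alike genes, a share that the definition of alike itself lowers. In 534 of the 535 alike genes the dox and untreated libraries did not overlap in either line; over all tested genes, 12.9% were higher and 13.7% lower without overlap in both lines. The 2 lines' log2 changes had a Spearman rho of 0.363 across the 13109 genes, which share libraries and are not independent points. In bulk RNA, fewer cells of a kind and less RNA per cell cannot be told apart for any of these changes.

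**Figure D1:**
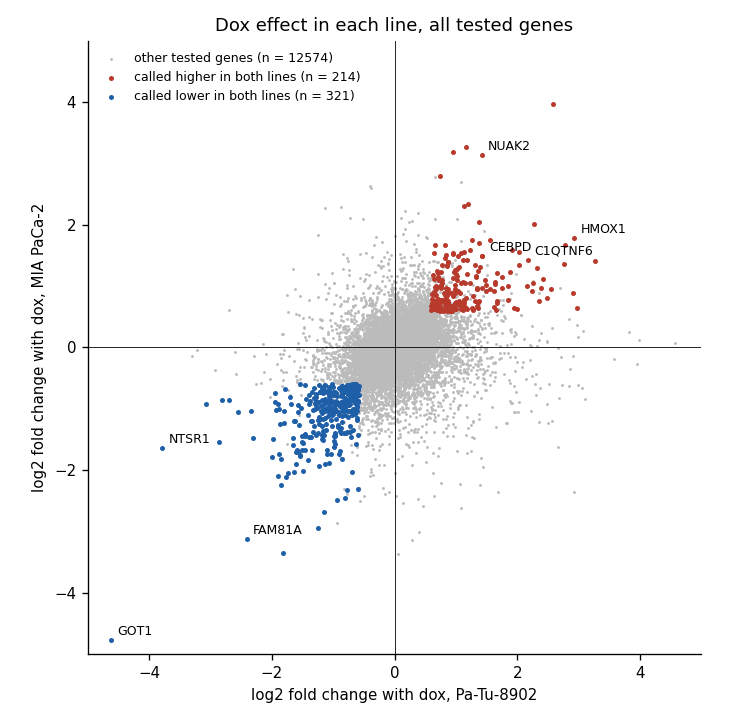
Log2 fold change with dox in Pa-Tu-8902 (horizontal axis) against MIA PaCa-2 (vertical axis), 1 point per tested gene, with 214 genes called higher in both lines in red and 321 called lower in both in blue. GOT1 stands alone at -4.63 and -4.77, and most tested genes lie in the grey cloud around 0.

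The alike genes that rose were mostly of low abundance. Their median level in untreated cells was 4.59 TPM in Pa-Tu-8902 and 4.45 TPM in MIA PaCa-2, and with dox 9.94 and 8.48 TPM. Alike genes that fell went from medians of 13.2 and 14.8 TPM to 7.09 and 7.66 TPM. All tested genes had medians of 14.8 and 14.1 TPM without dox. Protein-coding genes made up 196 of the 214 rises and 290 of the 321 falls, and antisense genes, whose reads were not stated to be counted by strand, made up 3 and 12.

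HMOX1, the heme oxygenase that splits heme into biliverdin, iron and carbon monoxide, had the largest rise among genes that averaged 100 or more normalised counts in each line and whose libraries did not overlap, ranked by the weaker of the 2 lines. It went from 164, 179 and 218 counts to 1314, 1466 and 1507 in Pa-Tu-8902. The MIA PaCa-2 libraries went from 392, 361 and 362 to 1277, 1319 and 1239. Dox brought both lines to nearly the same level from different starting points, and the rise was larger in Pa-Tu-8902 (log2 2.93 ± 0.09 against 1.78 ± 0.09, adjusted p of the difference = 3.28e-06). CEBPD, a stress-responsive C/EBP transcription factor, rose in both lines, at log2 1.43 ± 0.10 and 1.5 ± 0.12. Its counts were 460, 498 and 549 against 1172, 1343 and 1549 in Pa-Tu-8902, and 124, 114 and 117 against 352, 340 and 313 in MIA PaCa-2. C1QTNF6, a secreted C1q/TNF-related protein, rose 4.51-fold and 2.69-fold.

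EIF4EBP2, a repressor of cap-dependent translation that mTORC1 inactivates, was among the 15 largest shared rises. It rose from 2899, 2952 and 2884 counts to 7716, 8411 and 8138 in Pa-Tu-8902, and from 5871, 4734 and 5738 to 11371, 12343 and 11488 in MIA PaCa-2. The dox libraries of each line lay well above its untreated libraries, and the average log2 change was 1.29 ± 0.08 (adjusted p = 2.71e-08). FNIP2, the folliculin partner that acts on lysosomal Rag GTPases, rose in both lines (log2 1.18 ± 0.12 and 1.20 ± 0.11). GABARAPL1, an ATG8-type protein of autophagosome membranes, went from 358, 326 and 319 to 1103, 1113 and 1149 counts in Pa-Tu-8902 and from 374, 349 and 373 to 861, 751 and 815 in MIA PaCa-2. CREBRF, a regulator of the stress factor CREB3, rose by log2 1.31 ± 0.12 and 1.35 ± 0.11. The AMPK-related kinases SIK1 and NUAK2 rose as well, SIK1 by log2 1.40 and 1.32 and NUAK2 more in MIA PaCa-2 (3.13 against 1.42, adjusted p of the difference = 2.78e-04). SIK1 and its near-identical copy SIK1B share reads, so the split between them is uncertain. ARID3A, ITGA10, LZTS3, PKDCC and LMBR1L completed the 15 largest rises, with average log2 changes of 1.42, 1.73, 1.24, 1.67 and 1.26.

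**Figure D2:**
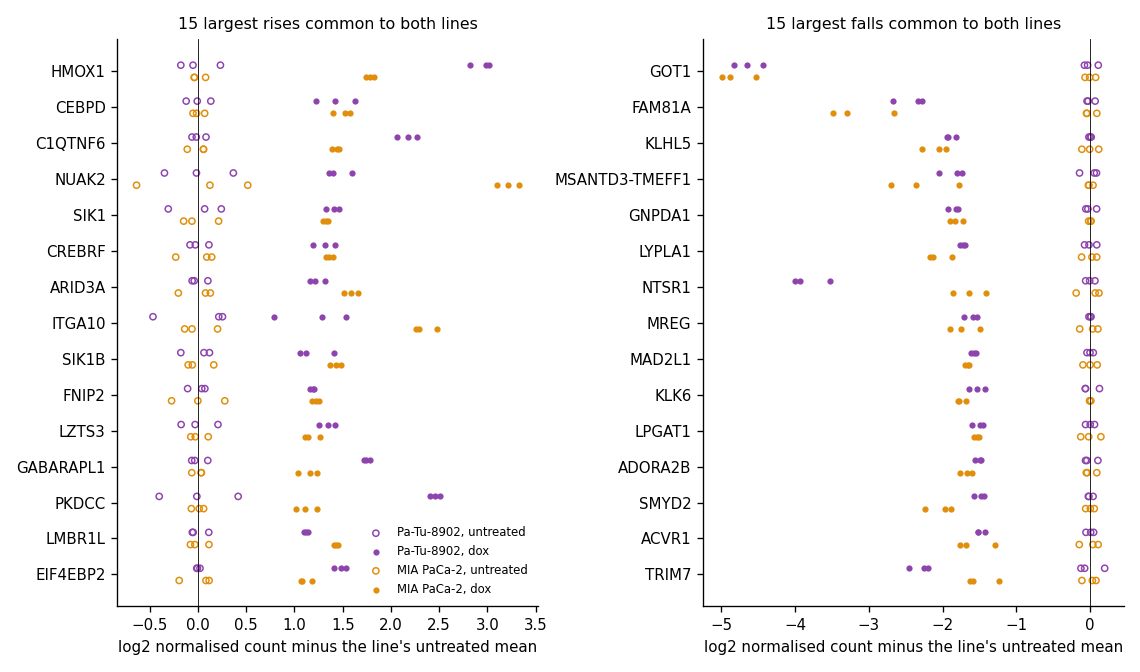
Log2 normalised count of each library minus the mean of the untreated libraries of its line, for the 15 largest rises (left) and falls (right) common to both lines, ranked from the top by the smaller of the 2 lines' changes. Open circles are untreated and filled circles dox libraries, purple for Pa-Tu-8902 and orange for MIA PaCa-2, and in no gene do the 2 sets of a line overlap.

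The shared falls below GOT1 were led by FAM81A, KLHL5, MSANTD3-TMEFF1, GNPDA1 and LYPLA1. KLHL5, a kelch-repeat protein of the family of ubiquitin ligase adaptors, fell from 2798, 2738 and 2771 counts to 784, 722 and 730 in Pa-Tu-8902 and from 1689, 1442 and 1551 to 375, 321 and 401 in MIA PaCa-2. GNPDA1, glucosamine-6-phosphate deaminase, fell from 2699, 2646 and 2930 to 723, 795 and 784, and from 2943, 2957 and 2889 to 820, 786 and 886. The GNPDA1 falls of 3.59-fold and 3.52-fold were nearly equal (difference -0.03 on the log2 scale, adjusted p = 0.832). ADORA2B, an adenosine receptor, fell from 2015, 2041 and 2264 to 750, 710 and 758 in Pa-Tu-8902 and from 1075, 1177 and 1066 to 349, 324 and 363 in MIA PaCa-2. FAM81A counts fell 5.32-fold and 8.68-fold, but its TPM fell only from 11.4 to 6.29 and from 3.74 to 1.68, and with RSEM effective lengths as offsets its average log2 change was -1.11 (adjusted p = 0.00132) in place of -2.69. MSANTD3-TMEFF1 is a readthrough of neighbouring genes, and its reads cannot be separated from theirs with certainty.

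MAD2L1, the spindle checkpoint protein MAD2, fell from 2972, 2887 and 3065 counts to 975, 995 and 1013 in Pa-Tu-8902. The MIA PaCa-2 libraries fell from 3860, 4125 and 3608 to 1220, 1188 and 1234. KLK6, a secreted serine protease, was the most abundant of the 15 falls, at 309 TPM in untreated Pa-Tu-8902 and 1046 TPM in untreated MIA PaCa-2, and fell 2.90-fold and 3.36-fold. The lysophospholipid enzymes LYPLA1 and LPGAT1 fell by log2 -1.73 and -1.51 in Pa-Tu-8902 and by -2.05 and -1.54 in MIA PaCa-2. SMYD2, a lysine methyltransferase, ACVR1, a type I BMP receptor, and MREG, melanoregulin, had average log2 changes of -1.74, -1.52 and -1.65. NTSR1, the neurotensin receptor, fell more in Pa-Tu-8902 (-3.78 ± 0.14) than in MIA PaCa-2 (-1.64 ± 0.13, adjusted p of the difference = 3.53e-07), as did TRIM7 (-2.31 against -1.48, adjusted p = 0.00205).

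Sequences of the transcripts, which the definition of the response did not use, were compared next. The 3′UTRs of the canonical transcripts (GENCODE 44, GRCh38) were available for 11298 tested genes, and 15783 of the 16384 possible 7-base words were held by at least 100 of them. The word AATGGAA went with the lowest log2 changes in Pa-Tu-8902, and when the words were ordered separately in MIA PaCa-2, it came first again. The order weighs the difference in mean log2 change between genes with and without a word by how many genes hold it. This feature was looked for after the fold changes were known and is given as a description, with no test.

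Of the 291 alike falls with a 3′UTR, 153 (52.6%) held the word there. It was held by 30 of 192 alike rises (15.6%) and by 2445 of all 11298 genes (21.6%), and its excess among the falls was the largest of the 15783 words. Its reverse complement TTCCATT, present in 21.6% of all genes too, was held by 26.1% of the falls and 28.1% of the rises. The word occurred 0.352 times per 1000 bases of 3′UTR in the falls, 0.0721 times in the rises and 0.148 times in all genes. In coding sequences it went with the lowest log2 changes again, but its excess among the falls ranked 3, after that of CAATGGA among others, with shares of 28.2% of falls, 16.1% of rises and 20.5% of all genes. GOT1 itself held the word once, in its coding sequence with the first base at position 373 of the reading frame, and not in its 3′UTR. The stretches around the word are shown for GOT1, for 6 of the largest shared falls and for EIF4EBP2, which rose although it holds it, to let the flanks be compared; capitals mark the word, read 5′ to 3′ on the transcript strand.
GOT1, coding: ttggtacAATGGAAcaaacaa
GNPDA1, 3′UTR: caagtgcAATGGAAagaaaac
ADORA2B, 3′UTR: tagaggcAATGGAAaaataaa
SMYD2, 3′UTR: ttttaaaAATGGAAttatttt
ACVR1, 3′UTR: ttgtcagAATGGAAtccatct
MREG, 3′UTR: tgagaaaAATGGAAatatttt
FAM81A, 3′UTR: taaattcAATGGAAatccccc
EIF4EBP2, 3′UTR: cattctgAATGGAAaagcgga
In GRCh38 the GOT1 stretch lies at chr10:99406764-99406784 on the minus strand and the GNPDA1 stretch at chr5:142001491-142001511 on the minus strand. Those of ADORA2B and SMYD2 lie on the plus strand at chr17:15975704-15975724 and chr1:214337044-214337064. The stretches of ACVR1 and MREG lie on the minus strand at chr2:157737434-157737454 and chr2:215943177-215943197. Those of FAM81A, the first of 6 copies, and of EIF4EBP2 lie on the plus strand at chr15:59521598-59521618 and chr10:70428336-70428356. A C comes before the word in the stretches shown for GOT1, GNPDA1, ADORA2B and FAM81A. Among all 2445 genes with the word, 416 have such a site. The stretches were picked, GOT1 among them and FAM81A with its first copy alone, so their share cannot be set against that of all genes. The later copies in FAM81A and the 3′UTR copies in KLHL5, MSANTD3-TMEFF1 and LPGAT1, which are not shown, have another base before the word. LYPLA1 also holds the word in its 3′UTR, and its stretch was not extracted.

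Among the 15 largest falls, 10 held the word in the 3′UTR and GOT1 held it in the coding sequence alone. The remaining 4, NTSR1, MAD2L1, KLK6 and TRIM7, held it in neither. Of the 15 largest rises, C1QTNF6 and EIF4EBP2 held it. Genes with more copies had lower changes in both lines. The median log2 change over genes with 0, 1, 2 and 3 or more copies was 0.03, -0.07, -0.13 and -0.19 for Pa-Tu-8902 and 0.02, -0.10, -0.16 and -0.26 for MIA PaCa-2. The groups held 8853, 1828, 452 and 165 genes. Alike falls made up 1.56%, 5.20%, 9.51% and 9.09% of them, and alike rises 1.83%, 1.37%, 0.885% and 0.606%.

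Length of the 3′UTR went with the word, since genes with at least 1 copy had a median 3′UTR of 3042 bases and genes without it of 987. Genes were split into 4 equal classes by 3′UTR length. In the class with the shortest 3′UTRs, 16.3% of the 98 genes with the word fell alike against 1.79% of 2732 without it, and the median average log2 changes were -0.32 and -0.03. In the longest class the shares were 4.67% of 1369 genes and 1.44% of 1456. In the 2 middle classes they were 7.72% against 1.59% and 7.35% against 1.31%. Genes in which a C comes before the word, as it does in GOT1, had a median average log2 change of -0.18 (416 genes). For A, G and T before it the medians were -0.10, -0.08 and -0.09. A C also follows the word in GOT1, and genes with a C after it had a median of -0.09 (364 genes). For A, G and T after it the medians were -0.12, -0.05 and -0.15. These sets overlap where a gene has several copies, and 3′UTRs were longest with a C before the word (median 3620 bases). The share of genes whose effect differed between the lines was 13.8% with the word and 13.7% without it. Whether the guide strand of the hairpin carries a matching seed was not tested, because its sequence was not given in the sources used here.

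**Figure D3:**
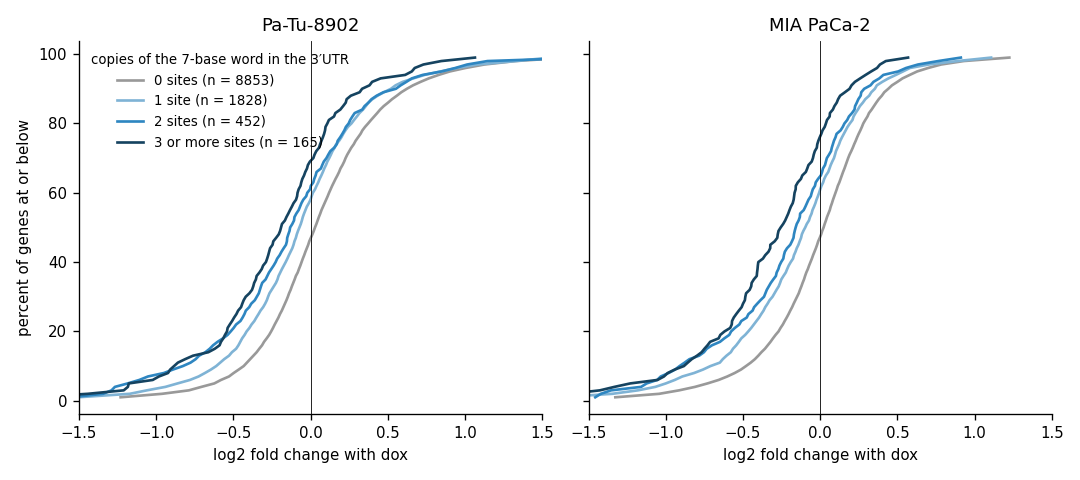
Cumulative distribution of log2 fold changes with dox (horizontal axis) as the percent of genes at or below each value (vertical axis), by the number of copies of the 7-base word in the 3′UTR, for Pa-Tu-8902 (left) and MIA PaCa-2 (right). The curves of genes with 1 or more copies lie to the left of the grey curve of the 8853 genes without it over most of their range in both lines, and the curve for 3 or more copies is the leftmost at its median.

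The programs of the shared response were then described over 50 gene lists holding 1371 tested genes. Each list was read against the values over all tested genes, of which 4.36% were called higher and 5.15% lower in the average and whose median log2 change was 0.003. No list was tested as a set. Of the 1371 list genes 30 rose and 37 fell alike, beside 1.63% and 2.45% of all tested genes. The word was in the 3′UTR of 16 of those 37 falls and in the coding sequence alone of 4 more, and in 2 of 29 rises that have a 3′UTR here, against 234 of 1354 list genes (17.3%). It is stated below wherever a falling member holds it. Rising genes are not all marked, as with ITGB1, ITGAV and GNE, which hold it in the coding sequence only. The word was picked for low changes in these same data, so leaving out its holders tends to raise a median by construction.

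**Figure D4:**
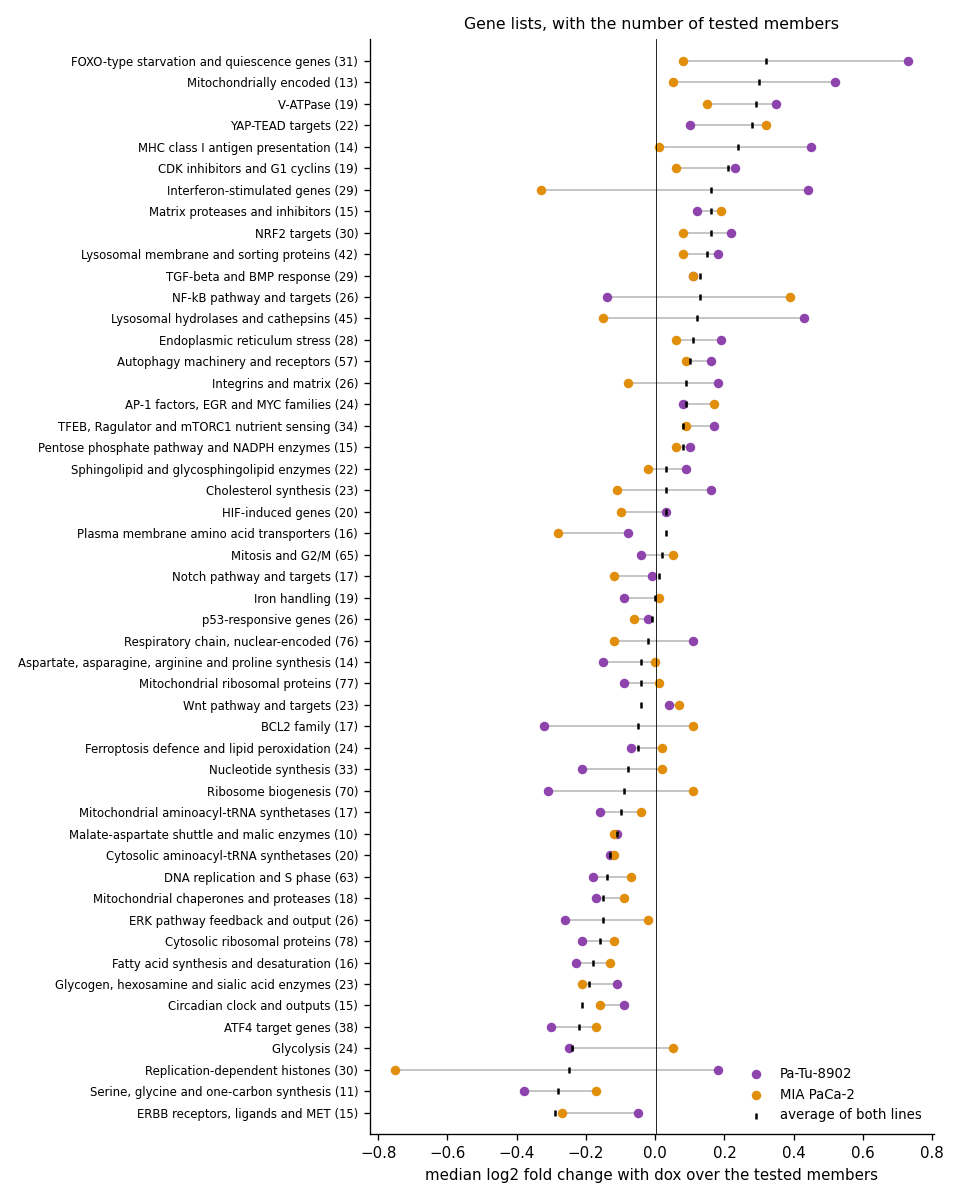
Median log2 fold change with dox over the tested members of each of 50 gene lists (number of tested members in parentheses), for Pa-Tu-8902 (purple), MIA PaCa-2 (orange) and the average of both lines (black bar). Serine, glycine and one-carbon synthesis lies below 0 and V-ATPase above 0 in both lines, while replication-dependent histones and interferon-stimulated genes lie on opposite sides of 0. For the histones, the Pa-Tu-8902 median is no larger than the spread of that list between libraries.

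Amino acid and one-carbon genes fell more often than they rose. Of 38 tested ATF4 target genes, which the integrated stress response raises when amino acids are short, 8 were called lower and 0 higher in the average, with a median log2 change of -0.30 for Pa-Tu-8902 and -0.17 for MIA PaCa-2. XPOT, the exportin of tRNAs, fell from 7875, 7805 and 8000 counts to 3695, 3552 and 3682 in Pa-Tu-8902 and from 9237, 7811 and 8401 to 4209, 4183 and 4230 in MIA PaCa-2. SLC7A11, the cystine importer, fell from 1825, 2044 and 1801 to 1199, 1104 and 1156, and from 557, 505 and 609 to 243, 154 and 210. Both hold the word in the 3′UTR. TRIB3 and DDIT3, induced by ATF4 in stress, fell alike by average log2 -0.65 ± 0.07 and -0.70 ± 0.10 and do not hold it. Without its 5 members that hold the word, the list's median average change was -0.22, the same as with them.

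Among 11 serine, glycine and one-carbon genes, 3 fell alike and none was called higher, with list medians of -0.38 and -0.17. These were TYMS (thymidylate synthase, average log2 -0.64 ± 0.05), MTHFD2L (a mitochondrial folate enzyme, -0.83 ± 0.09) and GLDC (the glycine cleavage decarboxylase, -1.53 ± 0.26), and all 3 hold the word in the coding sequence only. GLDC went from 90.2, 96.6 and 108 counts to 18.7, 10.7 and 16.5 in Pa-Tu-8902, and its effect differed between the lines (-2.70 against -0.86, adjusted p = 1.35e-05). Plasma membrane amino acid transporters moved in both directions. SLC6A6, the taurine transporter, rose by 0.98 ± 0.06 and 0.95 ± 0.06, and SLC36A1, a proton-coupled carrier of the lysosome and plasma membrane, by 0.99 and 0.69. SLC38A1, a glutamine carrier that holds the word, fell by 0.88 and 0.98 on the log2 scale. None of 17 mitochondrial and 1 of 20 cytosolic aminoacyl-tRNA synthetases were called in the average.

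Ferroptosis, the iron-dependent death by lipid peroxidation that the study addresses, was covered by 3 lists. Of 30 tested NRF2 targets, 5 were called higher and 4 lower, with HMOX1, ABCC3 and TRIM16L alike higher and SLC7A11 alike lower. Of 24 ferroptosis defence genes none was called higher and 2 were called lower, with medians of -0.07 and 0.02. Of 19 iron handling genes HMOX1 was called higher and FTL, the ferritin light chain, lower. FTL went from 50336, 57970 and 53241 counts to 23542, 23236 and 23657 in MIA PaCa-2, but only from 4797, 4700 and 5438 to 3301, 4248 and 3860 in Pa-Tu-8902 (log2 -1.20 against -0.39, adjusted p of the difference = 6.34e-05). TXNRD1, thioredoxin reductase, had the same order (-1.17 against -0.46, adjusted p = 6.51e-06). SLC7A11, FTL and TXNRD1 each hold the word in the 3′UTR. So do 10 of the 19 iron handling genes (52.6%) and 6 of 29 NRF2 targets (20.7%), against 21.6% of all genes with a 3′UTR. Without members that hold it, the median average change of the NRF2 list was 0.38 in place of 0.16, a rise that the choice of the word favours. The median became 0.37 in place of 0.22 in Pa-Tu-8902, but only 0.12 in place of 0.08 in MIA PaCa-2.

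Genes of starvation signalling were called higher more often than lower, with unequal medians in the 2 lines. Of 31 FOXO-type genes, raised when growth factor signalling is low, 8 were called higher and 1 lower, with medians of 0.73 for Pa-Tu-8902 and 0.08 for MIA PaCa-2. CITED2, a coactivator, rose alike from 590, 597 and 688 counts to 1205, 1390 and 1372, and from 188, 161 and 159 to 497, 462 and 513. FOXO3 itself fell by 0.86 and 0.78 on the log2 scale, and its 3′UTR holds 4 copies of the word. In the list of TFEB, Ragulator and mTORC1 sensing, 3 of 34 genes rose and all 3 did so alike, namely EIF4EBP2, FNIP2 and SLC38A9, an arginine sensor of the lysosome (average log2 0.89 ± 0.09).

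Autophagy genes had 4 of 57 called higher and 2 lower, with GABARAPL1, ULK1 and MAP1LC3A alike higher. MAP1LC3A was scarce in Pa-Tu-8902, at 23.4, 19.3 and 17.3 counts without dox and 29.9, 44.3 and 33 with it. ULK1, the kinase that starts autophagy, rose by 0.78 ± 0.08 and 0.61 ± 0.07. ATG5 and RETREG1 fell alike, and both hold the word. V-ATPase subunits, which acidify the lysosome, were above 0 in both lines for 15 of 19 genes (78.9%, against 32.1% of all tested genes), although only 1 passed the test. Lysosomal hydrolases were called higher for 9 of 45 genes and lower for 1, yet none was alike and the medians were 0.43 and -0.15.

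Few genes of cell division were called. Of 65 mitotic genes 1 was called higher and 3 lower, and MAD2L1 and NUF2, a kinetochore protein, fell alike. NUF2, which holds the word, fell by 1.13 ± 0.07 and 1.04 ± 0.07 on the log2 scale. Of 63 DNA replication genes 3 were called lower, among them TYMS and ORC1, an origin licensing subunit that holds the word, and 37 (58.7%) were below 0 in both lines against 31.9% of all tested genes. None of 78 cytosolic ribosomal protein genes and none of 76 nuclear-encoded respiratory chain genes was called in the average. Of the ribosomal protein genes, 66 (84.6%) were slightly below 0 in both lines, with medians of -0.21 and -0.12. The level of this list varied between libraries of a group with a standard deviation of 0.125 on the log2 scale. The MIA PaCa-2 median is no larger than that spread. Replication-dependent histones had medians of 0.18 for Pa-Tu-8902 and -0.75 for MIA PaCa-2. The level of the histone list varied between libraries of a group with a standard deviation of 0.189. The Pa-Tu-8902 median is no larger than that, so its sign is uncertain.

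Of 26 integrin and matrix genes, 8 were called higher and 3 lower in the average, and of 29 TGF-beta and BMP genes 4 were called higher and 4 lower. ITGB1 and ITGAV, integrin subunits, rose alike, ITGB1 from 35366, 34392 and 35014 counts to 54938, 51765 and 53730 in Pa-Tu-8902 and from 36192, 31651 and 32134 to 53891, 52283 and 55116 in MIA PaCa-2. ITGA3, the laminin-binding integrin subunit, and the laminin-332 chains LAMA3 and LAMB3 fell alike and do not hold the word. ITGA3 fell more in MIA PaCa-2 (-1.70 against -0.89, adjusted p of the difference = 2.13e-06), and LAMB3, at 47.6, 45.3 and 47.2 counts without dox, was scarce there. The summed level of 6 fibroblast markers moved with dox too, from between 3.82 and 6.38 TPM to between 18 and 21.7 in Pa-Tu-8902 and from between 192 and 248 to between 340 and 398 TPM for MIA PaCa-2. Collagen I made up nearly all of it, as COL1A1 in the former and COL1A2 in the latter, with every other marker at or under 0.34 TPM in each line, and its part in the matrix results was not tested. For TGF-beta signalling, the inhibitors BAMBI and SMAD7 and the coreceptor TGFBR3 rose alike. BAMBI was near the floor in Pa-Tu-8902, at 10.5, 6.44 and 7.57 counts without dox and 15.9, 22.9 and 18.6 with it. It passed the count filter in that line only through the dox libraries, so its call there is uncertain. The latent TGF-beta binding proteins LTBP2 and LTBP4 fell alike without holding the word. TGFBR3 rose by 0.85 ± 0.07 in each line with 2 copies of the word in its 3′UTR.

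Of 17 Notch genes, 3 were called lower in the average, all alike, and DTX2, a regulator of Notch, was called higher (average log2 0.78 ± 0.08) without being alike. The falls were JAG2, a ligand, at -0.67 ± 0.06 and -0.72 ± 0.06, NOTCH4 at -1.45 ± 0.34 and -1.67 ± 0.14, and HES2, a target, at -1.69 ± 0.15 and -0.92 ± 0.19. None of these holds the word. The HES2 call was lost with RSEM effective lengths as offsets (average log2 -0.74, adjusted p = 0.104), and its TPM went from 4.62 to 1.75 in Pa-Tu-8902 but from 1.34 to 1.75 in MIA PaCa-2, so the fall in the latter line holds for counts and not for TPM. Among ERBB ligands, AREG, which holds the word, fell more in MIA PaCa-2 (-2.03 against -0.69, adjusted p = 3.13e-07), and GAS6, a ligand of the AXL family of receptors, fell more in Pa-Tu-8902 (-1.79 against -0.68, adjusted p = 2.76e-07). EGR1, an immediate-early factor, fell alike by 1.04 and 0.86 on the log2 scale, while FOSL2, an AP-1 subunit, rose by 0.87 and 1.39.

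Lipid and sugar genes gave single members rather than whole lists. ACLY, which makes cytosolic acetyl-CoA from citrate, fell from 7911, 8017 and 8507 counts to 4290, 4355 and 4199 in Pa-Tu-8902 and from 13399, 11753 and 13285 to 6984, 6860 and 6428 in MIA PaCa-2, a fall of 1.90-fold in each. It holds the word, and the median of the 16 fatty acid genes was -0.18 with and -0.02 without members that hold it. The choice of the word itself favours such a rise. GFPT1, the first enzyme of hexosamine synthesis, fell by 0.65 and 1.01 on the log2 scale and holds 2 copies, so that both alike falls of that list, GFPT1 and GNPDA1, hold the word. UGCG and B4GALT5, which make glucosylceramide and lactosylceramide, rose alike (average log2 0.87 ± 0.09 and 0.95 ± 0.07), and DEGS1, which makes ceramide and holds the word, fell (-0.78 ± 0.06). Of 26 p53-responsive genes 2 were called higher and 3 lower, with a median average change of -0.01. TP53I3 and DDB2 fell alike (average log2 -0.93 ± 0.07 and -0.78 ± 0.08) and do not hold the word, while ZMAT3 was called higher (0.73 ± 0.09) without being alike.

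The genes of the average with the smallest p of the difference between lines show how an average can rest on 1 line. BIRC3, an NF-kB-induced inhibitor of apoptosis, rose in both but by log2 0.74 against 2.80 (adjusted p of the difference = 1.16e-10). GNE, which starts sialic acid synthesis, rose from 1795, 1642 and 1754 counts to 6694, 6393 and 6330 in Pa-Tu-8902 and held 8537, 7058 and 8145 against 8234, 8126 and 8199 in MIA PaCa-2. FAM20C, a secretory pathway kinase, changed by -2.12 against -0.41. The change was larger in MIA PaCa-2 for CYR61, a matrix protein and YAP target (0.17 against 1.92), and for NCEH1, a cholesterol ester hydrolase (0.24 against 2.05). The average calls of GNE, CYR61 and NCEH1 were lost in 7, 3 and 3 of the fits that left out 1 library, with average log2 changes of 0.80 to 1.00, 0.93 to 0.96 and 0.96 to 1.02. For GNE these were each of the 6 Pa-Tu-8902 libraries and the second untreated MIA PaCa-2 library, and for CYR61 and NCEH1 each untreated MIA PaCa-2 library.

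A set of 8 promoter motifs was searched on both strands from 250 bases before to 50 after the start in the 6406 tested genes with a single RefSeq promoter (GRCh38.p14). The shares among the 95 alike rises and the 164 alike falls are given as descriptions. The C/EBP-ATF composite element TGATGNAA was held by 0 of the rises and 6 of the falls (3.66%), against 1.19% of tested genes and 3.85% of all promoters. The E-box CACGTG was held by 9.47% and 6.71% against 10.9%, the FOXO element TGTTTAC by 3.16% and 1.83% against 2.11%, and the antioxidant response element TGACNNNGC by 11.6% and 14.6% against 15.7%. The AP-1 element TGANTCA was held by 6.32% of rises and 4.88% of falls against 3.98% of tested genes, and the E2F element TTCCCGC by 11.6% and 9.15% against 11.1%. The CHR element TTTGAA was held by 8.42% and 9.76% against 8.88%, and the CRE element TGACGTCA by 2.11% and 2.44% against 3.81%.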

How the data were processed

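Poly(A) RNA from 12 samples (4 groups of 3) was sequenced from directional libraries. The authors trimmed reads with Trimmomatic 0.39 and quantified them with RSEM 1.3.1 and STAR 2.5.2a on GRCh38 with GENCODE v29. They deposited expected counts per gene, of which 5.34% were not whole, together with TPM values and RSEM effective lengths. Whether counting used strand was not given in the sources used here.

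Expected counts were rounded and tested with edgeR 4.0.16 (TMM scaling, quasi-likelihood test, R 4.3.3). Genes reaching 10 counts in 3 or more libraries of each line entered an additive model with line as block and dox as the average effect, and a model of 4 group means gave each line's effect and their difference. Calls needed an adjusted p (Benjamini-Hochberg over all tested genes) under 0.01 and a change of 1.5-fold or more. TPM served for levels. Totals of 26226537 to 43406137 counts cover counting error only. The gene lists and members were chosen with earlier results of these data known.

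Named genes were GOT1, the 15 largest rises and falls called alike with a mean of at least 100 counts in each line and no overlap of libraries, up to 4 called genes of each list by smallest p, and the 5 genes of the average with the smallest p of the difference between lines. ABCC3, RETREG1, SMAD7 and LAMA3 were added after their values were seen, to complete counts of alike list members. Positions, 3′UTRs and coding sequences came from the canonical transcripts of GENCODE 44, which covered 13047 of 13109 tested genes by identifier. Promoters came from RefSeq (GRCh38.p14). The code was tested on simulated data. Alternatives were DESeq2 1.42.0, limma-voom (limma 3.58.1), other scaling, filters, thresholds, effective lengths as offsets, a replicate block and leaving out each library. Deviations from group means of same-numbered untreated and dox libraries correlated at 0.135, -0.0592 and 0.222 in Pa-Tu-8902 and at 0.0157, -0.0902 and -0.076 in MIA PaCa-2, so the numbers were not taken to pair samples.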

Additional observations from a re-analysis of the deposited data

Results flagged for a closer look

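For 23 of the genes named above, the effect of dox differed between the lines by the test of the difference itself (edgeR quasi-likelihood test, adjusted p below 0.01 and a difference of at least 1.5-fold). Values are the log2 change in Pa-Tu-8902 minus that in MIA PaCa-2.

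Among shared rises, the change was more positive in Pa-Tu-8902 for HMOX1 (1.15), PKDCC (1.29), C1QTNF6 (0.75), GABARAPL1 (0.60) and ABCC3 (1.68), and in MIA PaCa-2 for NUAK2 (-1.71), ITGA10 (-1.15), SMAD7 (-1.16) and BIRC3 (-2.06). Among shared falls, it was deeper in Pa-Tu-8902 for NTSR1 (-2.14), GLDC (-1.84), GAS6 (-1.11) and TRIM7 (-0.83), and deeper in MIA PaCa-2 for RETREG1 (1.64), AREG (1.33), ITGA3 (0.81) and SLC7A11 (0.74).

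The falls of FTL (0.81) and TXNRD1 (0.70), both deeper in MIA PaCa-2, passed the fold limit in that line alone. The remaining genes were called in the average but not in both lines, namely GNE (1.86), FAM20C (-1.72), CYR61 (-1.75) and NCEH1 (-1.80).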

How the results depend on the processing

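The number of genes called in the average (1246), alike (535) and in the average with a difference between lines (318) stayed within 1.5 times under DESeq2 (1312, 539 and 370), limma-voom, DESeq2 size factors, a stricter count filter and effective lengths (1126, 468 and 230). DESeq2 and effective lengths shared 527 and 427 of the alike genes. Without a filter the average gave 2007 genes of 29171 tested. With no fold limit the 3 counts were 3992, 1993 and 820, and with a fold of at least 2 they were 366, 140 and 88. With the replicate block they were 966, 527 and 167, and the average calls of GNE, FAM20C, CYR61 and NCEH1 were lost. The numbers were not taken to pair samples, and whether same-numbered libraries share a batch was not given in the sources used here. What the lost calls reflect was not tested. Leaving out 1 library gave 1140 to 1246, 503 to 529 and 247 to 324, and 22 to 26 of 50 lists with a median above 0, against 25. Outside the changed thresholds, 81 of 82 named alike genes kept their average call in each planned setting that tested them, HES2 being the exception. No direction of an average reversed there, and FAM81A moved from -2.69 to -1.11 with effective lengths.

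In settings chosen after seeing the data, leaving out genes with the 7-base word in the 3′UTR gave 352 alike genes, 184 higher and 168 lower in place of 214 and 321. Leaving out those with it in the 3′UTR or coding sequence gave counts of 770, 295 and 201. Fewer genes are tested there by construction (10663 and 9024), and the word was picked for low changes in these data. Totals limit calls for scarce genes such as LAMB3 in MIA PaCa-2, and BAMBI and MAP1LC3A in Pa-Tu-8902.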
